A study of Mus musculus with 10 samples.

Results

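The solute carriers (SLC) are membrane proteins that move ions, sugars, amino acids, transmitters, metals, nucleotides and vitamins across the plasma membrane and the membranes of organelles. The genes described here are all genes in the deposited m6A peak lists whose symbol begins with Slc and a digit. They number 147 of the 8516 genes with any peak. Of these, 143 encode transporters or transporter subunits. The other 4 carry the prefix for another reason: Slc9a3r1 and Slc9a3r2 encode the NHERF scaffolds that bind the sodium-proton exchanger, and Slc4a1ap and Slc7a6os are named for a partner protein and for a neighbouring gene on the opposite strand.

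The study mapped N6-methyladenosine (m6A) by m6A-seq in polyA RNA from the cortex and hippocampus of 5-day-old (postnatal day 5) mice, where an antibody against m6A enriches RNA fragments and regions above unselected input RNA are called as peaks. The knockout (KO) group lacked Mettl14 through Nestin-Cre and had 2 IP and 2 input libraries. The wild-type (WT) group had 3 IP and 3 input libraries, and whether these animals carried floxed alleles or Cre is not given in the labels. The labels also name a culture medium, so the RNA may have come from tissue or from cultured cells. Nestin-Cre acts in the neuroepithelial lineage of neurons, astrocytes and oligodendrocytes, so microglia and vessel cells of a KO brain can keep the gene.

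METTL14 supports RNA binding and activity of METTL3, the enzyme that places most m6A in mRNA, and this methylation is typically dense near stop codons and in long internal exons. In the brain, SLC proteins end transmission by taking up glutamate and GABA, load synaptic vesicles, set the chloride and calcium gradients of neurons, feed neurons and glia with glucose and lactate, and carry metabolites into mitochondria. Many are expressed by a single cell class, such as SLC1A2 and SLC1A3 in astrocytes or the vesicular transporters in neurons.

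The deposited data are 2 consensus peak lists, a single list for each genotype, each entry with its position, strand, gene, exonic blocks and a score that lies in the range of a p or q value (a smaller score is a stronger peak). No value per library is given, the depth is unknown here, and no difference between the lists has a replicate error or a test. Shares carry Wilson 95% intervals, which reflect only how many peaks or genes were counted, and each is set beside the same share over all genes. A WT peak is called retained where it shares 1 or more exonic bases with a KO peak on its own strand, and lost otherwise. In bulk samples fewer cells of a type and less RNA per cell cannot be told apart, and the same holds here for a peak that is lost and a transcript that is less abundant. Coordinates are those of GRCm38, counted from 1.

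Stretches of transcribed sequence are shown for 5 genes in which a peak reached an annotated transcription start, because they include a peak with the same borders in both lists, peaks that were shorter in KO and peaks of KO alone. Each line gives transcript positions 21 to 50 of 1 RefSeq start (GRCm38.p6), 5′ to 3′, with the bases under a peak in capitals. In Slc22a17 the capitals mark the KO and the WT peak, which had the same borders. In Slc17a1 and Slc39a10 they mark the KO peak. In Slc3a2 and Slc6a17 they mark the WT peak, which the KO peak overlapped only downstream of this stretch.
Slc22a17, chr14:54913083-54913112, minus strand: AGAGACCGTAGAGACGGAGGAGGCGCCCGC
Slc17a1, chr13:23869038-23869067, plus strand: ACAACTACTAACTTGGAGCTTTCAATCATT
Slc39a10, chr1:46853569-46853598, minus strand: agagcgccggctcTCGCGCTAGGCTCCGCG
Slc3a2, chr19:8713848-8713877, minus strand: gcggcagaagcaGTTAGGAAGCTCTGCTAG
Slc6a17, chr3:107500691-107500720, minus strand: TGACAGGAACCGAGCCCCACCTTCTCTGTG
A start was found in the promoter table for 113 of the 147 genes, with 152 starts in all. KO peaks reached a start in 3 genes and WT peaks in 17, and 3 of these 17 WT peaks were retained. The letters GGAC, a frequent core of m6A sites, were counted in the first 50 transcribed bases of each start, whether or not a peak covered them. They occurred at 4 of the 19 starts that a WT peak reached (21.1%), at 29 of the 152 Slc starts (19.1%) and at 18.9% of the 32851 starts of all genes. Among the 4 were Slc16a14, Slc24a3 and Slc49a4, where the WT peak covered only positions 31 to 50 and these held no GGAC. On the other strand of the same windows GGAC occurred at 17.4% of all starts.

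The lists held markers of the labelled tissue. A peak was listed for 10 of 11 cortical and neuronal markers in KO and for 11 of 11 in WT, and the hippocampal markers Prox1 and Zbtb20 had peaks in WT but none in KO. Of 6 astrocyte markers 3 had a peak in KO and 5 in WT, and of 5 oligodendrocyte markers 2 had one in KO and 3 in WT. Cells outside the Nestin lineage were represented too: of 4 microglia markers 1 had a peak in KO and 3 in WT, and of 4 endothelial markers 2 had one in KO and 3 in WT. Among markers with a WT peak, a retained peak was found in 9 of 11 cortical and neuronal and 2 of 5 astrocyte genes. It was found in 1 of 3 microglia and 1 of 3 endothelial genes, the latter being Cdh5 with 2 retained peaks. None of the 2 hippocampal and 3 oligodendrocyte genes with a WT peak had one. No marker group was tested against another, and the part of cells outside the Nestin lineage in the peaks retained in Slc genes was not tested. Of 4 choroid plexus markers none had a peak in either list. Mettl14 itself had no peak in KO and 1 in WT. The whole lists held 3673 KO peaks in 2879 genes and 15009 WT peaks in 7717 genes, so a shorter KO list stands behind every count below.

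The Slc genes carried 47 peaks in 43 genes in KO, against 228 peaks in 135 genes in WT. KO peaks thus amounted to 20.6% of the number of WT peaks, beside 24.5% over all genes. Summed exonic peak length was 8117 bases in KO and 51870 bases in WT, a ratio of 15.6% beside 16.6% over all genes. A gene with a peak had on average 1.09 peaks in KO and 1.69 in WT, while the averages over all genes were 1.28 and 1.94. RefSeq annotates 375 protein-coding Slc genes, and 43 of them had a KO peak, 135 (36%) a WT peak and 228 none in either list. Among all protein-coding genes 34.2% had a WT peak, so methylated Slc transcripts were about as frequent as methylated transcripts in general.

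Of the 228 WT peaks in Slc genes, 18 were retained in KO and 210 were lost. The retained share was 7.89% (95% interval 5.05 to 12.1%), beside a background of 12.9% over all WT peaks. The 18 retained peaks lay in 18 different genes, 13.3% (8.60 to 20.1%) of the 135 with a WT peak, beside 20.6% of all genes with a WT peak. Seen from the KO list, 18 of 47 KO peaks lay over a WT peak, 38.3% (25.8 to 52.6%) beside 57.1% over all KO peaks. Each of these 3 background shares lay above the upper end of the Slc interval under this 1-base rule. The gap depended on the rule: with a required overlap of 50% of each peak, the shares were 5.26% of Slc WT peaks beside 6.26% of all, 8.89% of Slc genes beside 10.9% of all, and 25.5% of Slc KO peaks beside 25.6% of all. Both KO and WT peaks were listed for 31 genes, and in 13 of these (41.9%, 26.4 to 59.2%) the KO peaks lay outside every WT peak, beside 23.8% of all genes in both lists. A peak in KO alone was listed for 12 genes, 8.16% (4.73 to 13.7%) of the 147 beside 9.38% of all genes with a peak.

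Peaks in the Slc genes were mostly single. In KO 40 genes had 1 peak, Slc12a9 and Slc4a3 had 2 and Slc8a1 had 3. In WT 83 genes had 1 peak, 30 had 2, 10 had 3, 6 had 4, 5 had 5 and Slc8a2 had 6. The genes with most WT peaks after Slc8a2 were Slc8a1, Slc24a3, Slc39a3, Slc39a7 and Slc45a4 with 5 each, then Slc22a23, Slc25a44, Slc2a1, Slc35e4, Slc6a17 and Slc8a3 with 4 each. A retained peak was found in 6 of these 12 genes (50%), beside 46% of all genes with 4 or more WT peaks. Among genes with a single WT peak it was found in 6 of 83 (7.23%, all genes 10.5%), and among genes with 2 in 5 of 30 (16.7%, all genes 22.7%). Among genes with 3 it was found in 1 of 10, or 10% beside 33.8%.

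**Figure D1:**
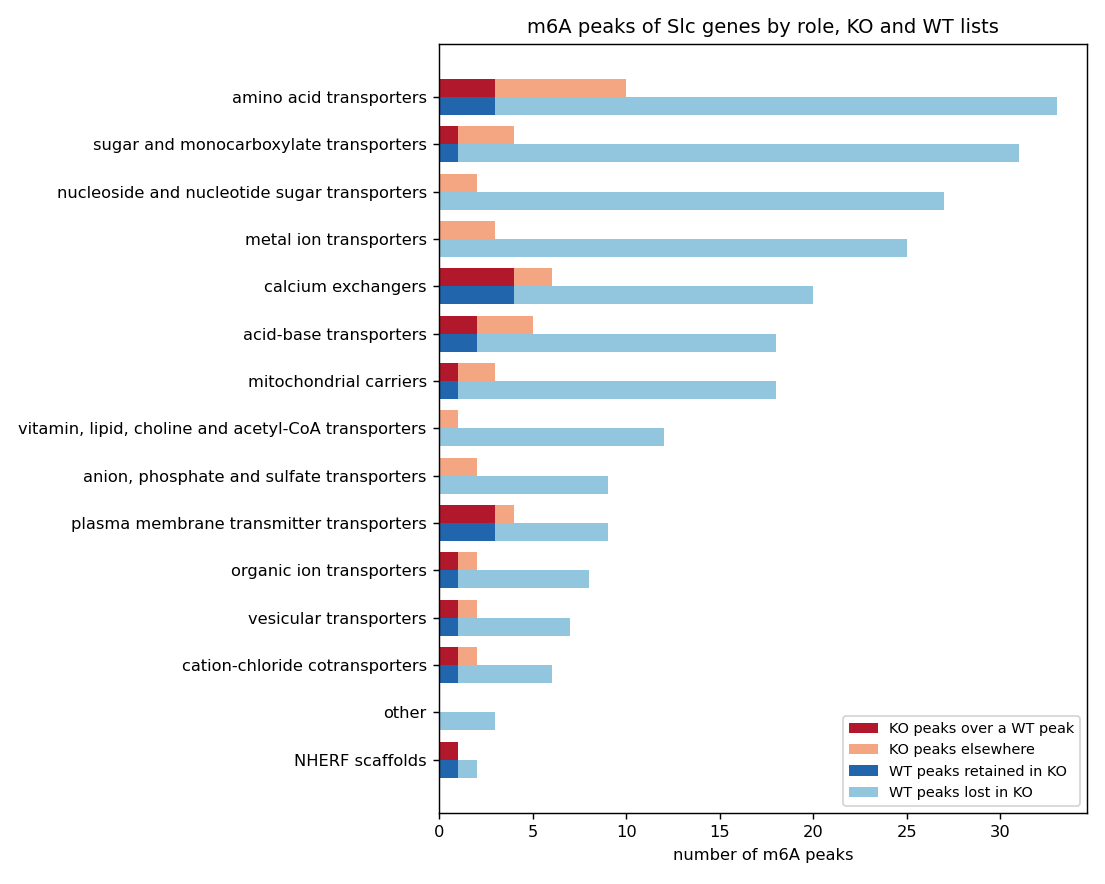
Number of m6A peaks of Slc genes in each role, with KO bars above WT bars. Dark segments are peaks that overlap between the lists and pale segments those that do not. The calcium exchangers have the most overlapping peaks, 4, and the nucleoside and nucleotide sugar transporters and the metal ion transporters have none among 27 and 25 WT peaks.

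The plot of peaks by role gives the counts in each role, and no role was tested against another. The roles follow family numbers, with a few genes of mixed families placed by known substrate. Calcium exchangers and plasma membrane transmitter transporters, 9 genes together, held 7 of the 18 retained peaks and 29 of the 228 WT peaks. Taken singly, 4 of 20 and 3 of 9 WT peaks were retained, beside a background of 12.9%. These roles were paired with earlier results known, and their joint share is given without an interval. The calcium exchanger genes were also rich in WT peaks, and 46% of all genes with 4 or more WT peaks had a retained peak. The 3 roles with the most genes held 4 retained peaks, 3 in amino acid transporters and 1 in sugar and monocarboxylate transporters.

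With any shared exonic base counted, the calcium exchangers were the only role in which every gene with a peak had a retained peak. They comprised Slc8a1, Slc8a2 and Slc8a3, which encode the sodium-calcium exchangers NCX1 to NCX3 that extrude calcium from neurons and glia, and Slc24a3, which encodes the potassium-dependent exchanger NCKX3. The 4 genes had 6 peaks over 964 exonic bases in KO and 20 peaks over 5897 bases in WT, and 4 of the 20 were retained (20%, 8.07 to 41.6%, all genes 12.9%). Each of the 4 genes had 4 to 6 WT peaks, a class in which 46% of all genes had a retained peak. That all 4 had a retained peak depended on the setting. With 50% of the WT peak covered, Slc8a1 and Slc8a2 no longer had one. The same genes dropped out with the stronger 50% of each list. When only as many WT peaks as KO peaks were kept, Slc8a2 and Slc8a3 dropped out. The other 5 annotated members of the group had no peak in either list.

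Slc8a2 on chromosome 7 had 1 peak in KO, at 16152901-16157184 over 3 exonic blocks and 181 bases, with a score of 1e-16. In WT it had 6 peaks, of which the one at 16145348-16157184, with 6 blocks, 391 bases and a score of 5e-33, contained the KO peak. The other 5 WT peaks, 3 of them upstream and 2 downstream of it, had no KO counterpart. They included the strongest peak of the gene, at 16140566-16144988 with a score of 1e-189, and the pair at 94.7% and 96.7% of the gene span.

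Slc8a3 on chromosome 12 had 1 KO peak of 3 blocks and 300 bases at 81214113-81314395, with a score of 4e-20. The WT peak at 81204104-81314455 contained it, with 6 blocks, 600 bases and a score of 1e-79. The first block of both peaks lay at 14.2% of the gene span, and the KO peak covered 50% of the bases of the WT peak. The 3 other WT peaks of the gene, among them the 2 strongest with scores of 1e-146 and 1e-122, were lost.

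Slc8a1 on chromosome 17 had 3 KO peaks and 5 WT peaks. The KO peak at 81437768-81441666, only 61 bases in 2 blocks with a score of 3.2e-11, lay within a WT peak of 6 blocks and 271 bases at 81428256-81442214, with a score of 1e-132. The 2 other KO peaks, at 81375624-81375744 and 81388249-81388338, lay 299 and 179 bases from the nearest WT peak, each beside a different WT peak near the gene end. The pair of WT peaks in the upstream part of the gene, at 24.3% and 24.6% of the span with scores of 1e-126 and 1e-155, had no KO peak nearby.

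Slc24a3 on chromosome 2 had 1 KO peak of 211 bases at 145606645-145606855, with a score of 1.3e-40. It covered 75.1% of the WT peak at 145606675-145613570, which had 241 bases and a score of 1e-110, and started upstream of it. The 3 WT peaks with midpoints in the last 1587 bases of the gene, with scores of 1e-252, 1.6e-73 and 1e-188, were lost, as was a weak one at the start of the gene.

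**Figure D2:**
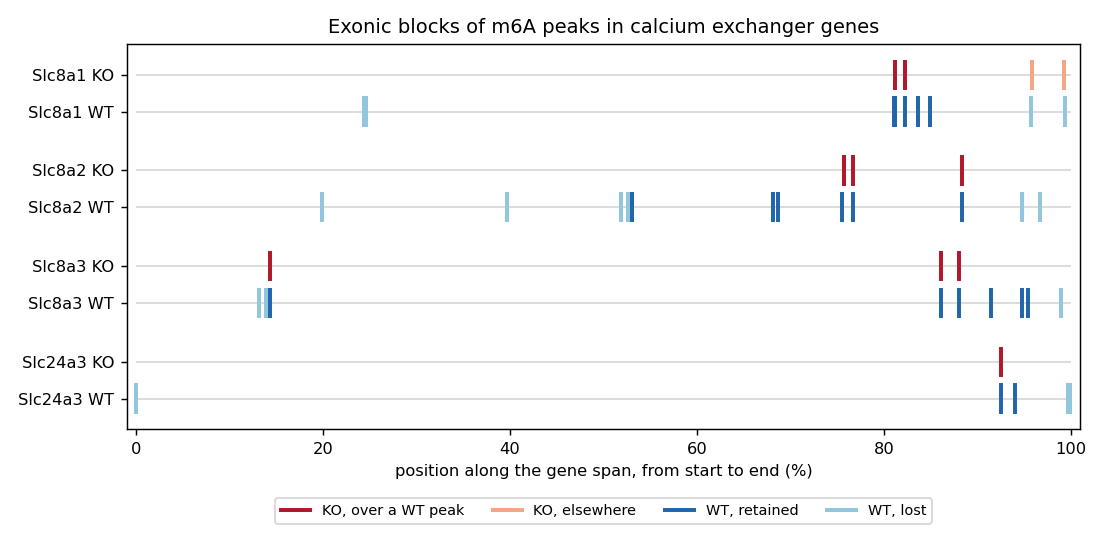
Exonic blocks of the m6A peaks of Slc8a1, Slc8a2, Slc8a3 and Slc24a3, with the KO row above the WT row of each gene and position given as percent of the gene span from start to end. Dark blocks belong to peaks that overlap between the lists. The overlapping blocks lie inside the genes, and the WT peak nearest the gene end is lost in all 4.

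The map of the exchanger genes shows an arrangement that also occurred in other Slc genes, and it was looked for after these peaks had been seen. In 12 Slc genes some WT peaks were retained and others lost. The WT peak nearest the gene end was lost in 10 of them (83.3%), the exceptions being Slc25a23 and Slc6a7, while in these genes 30 of 42 WT peaks were lost (71.4%). Over all 1119 genes of this kind the last WT peak was lost in 65.2%, with 63.1% of their WT peaks lost. The WT peak nearest the gene start was retained in 5 of the 12 Slc genes (41.7%), beside 45.1% over all such genes.

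Among the plasma membrane transmitter transporters 5 of 16 annotated genes had a peak, with 4 peaks in KO and 9 in WT, and 3 WT peaks were retained. Slc1a3 encodes GLAST, a glutamate transporter of astrocytes. It had a KO peak of 150 bases at chr15:8708682-8708831 with a score of 6.3e-21, covering 71.4% of a WT peak of 210 bases with a score of 1e-162 at 2.67% of the gene span. The second WT peak of Slc1a3, at chr15:8636033-8639077 near the gene end, was listed with a score of 0, among the strongest of the list, and was lost.

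Slc1a2 encodes GLT-1, the main glutamate transporter of forebrain astrocytes. It had 1 KO peak, at chr2:102786504-102786654 with 151 bases and a score of 1e-14. Its WT peaks lay at 102789527-102789737 and 102789916-102790275, with scores of 1e-141 and 1e-181, and the KO peak lay 2872 bases upstream of the nearer one. Both lists thus held a peak for this gene and shared none.

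Slc6a7, the brain proline transporter gene, had a KO peak of 61 bases inside a WT peak of 567 bases, so that 10.8% of the WT peak was covered, the smallest part among the 18. Its other WT peak, of 478 bases, was lost. Slc1a1, which encodes the neuronal glutamate transporter EAAC1, had a single WT peak, which was lost.

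The vesicular transporters, which load transmitter into synaptic vesicles, had 2 peaks in KO and 7 in WT. Slc17a7 encodes VGLUT1 of cortical glutamatergic terminals. Its peak at chr7:45164041-45168731, 121 bases in 2 blocks, had the same borders in KO and WT, with scores of 2.3e-09 and 3.2e-39. Its second WT peak, at 45174939-45175029, was lost.

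Slc32a1 encodes VGAT, the vesicular GABA and glycine transporter, and had no KO peak. Its 3 WT peaks lay on chromosome 2 at 158611384-158614106 (538 bases, score 1e-112), 158614882-158615061 (180 bases, score 2e-11) and 158615449-158615717 (269 bases, score 6.3e-55). Slc17a6, which encodes VGLUT2, had no KO peak and 1 WT peak at chr7:51669178-51669388, of 211 bases with a score of 1.6e-31. The 1 WT peak of Slc17a8 (VGLUT3) was lost too, and Slc18b1, a vesicular polyamine transporter gene, had a KO peak of 61 bases and none in WT. The genes for vesicular monoamine and acetylcholine transport had no peak in either list.

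The cation-chloride cotransporters had 2 peaks in KO, both in Slc12a9, and 6 in WT. Slc12a5 encodes KCC2, which lowers chloride in maturing neurons, and had no KO peak and 1 WT peak at chr2:164997731-164997970 of 240 bases with a score of 2.5e-25. Slc12a2 (NKCC1, which loads chloride) and Slc12a4 (KCC1) likewise had WT peaks and no KO peak. Slc12a9, a relative of these cotransporters, had a KO peak of 120 bases at chr5:137315127-137315246 inside a WT peak of 450 bases at 137315067-137315516, with scores of 6.3e-13 and 1e-102. Its second KO peak lay 21163 bases from the WT peak, the longest such distance among the Slc genes.

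The acid-base transporters, which move protons, bicarbonate and other anions, had 5 peaks in KO and 18 in WT, and 2 were retained. Slc4a8 encodes a sodium-driven chloride-bicarbonate exchanger of neurons. Its KO peak at chr15:100781304-100784724 had 4 blocks, 331 bases and a score of 2.5e-16, and the WT peak at 100781304-100784754 had 4 blocks, 361 bases and a score of 1.3e-22. The other 2 WT peaks of Slc4a8 were lost. Slc4a3, the anion exchanger AE3 gene, had KO peaks of 329 and 209 bases and a WT peak of 240 bases at chr1:75548015-75548348, 75% of which was covered by the wider of the KO peaks. Slc4a10, another neuronal bicarbonate transporter gene, had no KO peak and 2 WT peaks.

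Amino acid transporters formed the largest group, with 23 genes, 10 peaks in KO and 33 in WT, of which 3 were retained. Slc3a2 encodes the CD98 heavy chain, which brings several light chains to the plasma membrane. Its KO peak at chr19:8713506-8713745 had 240 bases and a score of 1e-216, the strongest among the KO peaks of Slc genes, and the WT peak at 8713506-8713865 had 360 bases and a score of 1e-273. Both ended at the same base, and the WT peak alone extended to the sequence stretch shown above. Slc7a5 encodes LAT1, a light chain of CD98 that imports large neutral amino acids. Its KO peak of 180 bases at chr8:121882098-121882277, with a score of 1.6e-45, lay 59 bases from the WT peak at 121882337-121882664, which was listed with a score of 0, and the lists shared no base of this gene.

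Slc38a10, a neutral amino acid transporter gene, had the widest WT peak of all Slc genes, 1914 bases in 6 blocks at chr11:120104908-120110845 with a score of 1e-232. Its KO peak at 120105924-120110156 had 510 bases in 5 blocks and a score of 2.5e-78, and was also the widest KO peak. Slc6a17 encodes NTT4, a neutral amino acid transporter of synaptic vesicles. It had a KO peak of 180 bases with a score of 1.6e-20 inside a WT peak of 300 bases with a score of 1e-173, and its 3 WT peaks nearer the gene end were lost. Slc1a4, the neutral amino acid exchanger ASCT1 gene, had no KO peak and 3 WT peaks over 1202 bases. Slc43a2, the LAT4 gene, had no KO peak and 3 WT peaks over 810 bases.

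The sugar and monocarboxylate transporters had 4 peaks in KO and 31 in WT. Slc2a1 encodes GLUT1, the glucose transporter of the blood-brain barrier and glia. It had no KO peak and 4 WT peaks, 3 of them with midpoints in the last 808 bases of the gene. Slc16a1 encodes MCT1, which carries lactate and ketone bodies, and had no KO peak and 2 WT peaks, the stronger with a score of 1e-224. The 1 retained peak of this role was that of Slc45a4, placed here with the sugar transporters by its family, with a KO peak of 151 bases at chr15:73586592-73586742 and a score of 1.5e-08, inside a WT peak of 480 bases with a score of 1e-59. The 4 other WT peaks of Slc45a4 were lost.

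Metal ion transporters had 3 peaks in KO and 25 in WT, and none of the 25 was retained, a count of 0 that allows a share of up to 12% when taken as 3 peaks of the total, or up to 13.3% by the Wilson interval. The background of 12.9% lies between these limits. Slc39a7 encodes ZIP7, which releases zinc from the endoplasmic reticulum, and Slc39a3 encodes the plasma membrane zinc importer ZIP3. Slc39a7 had no KO peak and 5 WT peaks over 1111 bases, with scores down to 1e-192, and Slc39a3 had no KO peak and 5 WT peaks over 1054 bases. Slc39a10 (ZIP10) and Slc30a1, the gene of the zinc exporter ZnT1, each had a KO peak outside their WT peaks, at 6253 and 1911 bases from the nearest one. The third such gene was Slc39a6 (ZIP6).

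The nucleoside and nucleotide sugar transporters, most of which supply the Golgi and endoplasmic reticulum with activated sugars, had 2 peaks in KO and 27 in WT. None of the 27 was retained, which allows a share of up to 11.1% as 3 peaks of the total and up to 12.5% by the Wilson interval. Slc35e4, an orphan member, had no KO peak and 4 WT peaks over 1503 bases. Slc35b3, a transporter of activated sulfate, had no KO peak and 3 WT peaks. Slc35d1, which carries UDP-sugars for chondroitin sulfate synthesis, had a KO peak and no WT peak. The KO peak at chr4:103173074-103173523 had 450 bases and a score of 1e-124.

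Mitochondrial carriers of the SLC25 family had 3 peaks in KO and 18 in WT, in 14 of 47 annotated genes. A WT peak was present in 12 of the 47 (25.5%, 15.3 to 39.5%), an interval that holds the 36% of all Slc genes. The organic ion transporters (13.9%) and the anion, phosphate and sulfate transporters (21.1%) had lower shares. Slc25a23 encodes a calcium-regulated carrier of ATP-magnesium and phosphate. Its KO peak at chr17:57045139-57045377 had 239 bases and a score of 1e-46, and lay inside a WT peak of 298 bases at 57045139-57045436 listed with a score of 0. Slc25a44, a carrier of branched-chain amino acids, had no KO peak and 4 WT peaks over 810 bases. Slc25a51, the mitochondrial NAD carrier, had no KO peak and 3 WT peaks over 602 bases, and the single WT peak of Slc25a4, the adenine nucleotide translocator ANT1, was lost. Slc25a40 and Slc25a2, carriers of glutathione and of ornithine, had a peak in KO alone.

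The organic ion transporters had 2 peaks in KO and 8 in WT. Slc22a17, a receptor for the iron-binding protein lipocalin-2, had a peak of 361 bases at chr14:54912639-54913132 with the same borders in KO and WT and scores of 3.2e-23 and 2.5e-56, beginning at the annotated start whose sequence is shown above. Slc22a23, an orphan member, had no KO peak and 4 WT peaks over 901 bases. The anion, phosphate and sulfate transporters had 2 KO peaks, in Slc17a1 and Slc17a3, and 9 WT peaks, of which 3 each lay in the phosphate transporter genes Slc20a1 and Slc20a2 and 2 in the citrate transporter gene Slc13a5. The vitamin, lipid, choline and acetyl-CoA transporters had 1 KO peak, in the choline transporter gene Slc44a1, and 12 WT peaks, with 3 in Slc49a4, 2 in Slc44a2 and 2 in Slc27a4, a fatty acid transporter gene. None of these 9 and 12 WT peaks was retained, which allows shares of up to 29.9% and 24.2% by the Wilson interval, beside a background of 12.9%. Of the NHERF scaffolds, Slc9a3r2 had a KO peak of 120 bases inside a WT peak of 239 bases, and Slc9a3r1 had 1 WT peak and none in KO. Slc4a1ap and Slc7a6os had 2 and 1 WT peaks and no KO peak.

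**Figure D3:**
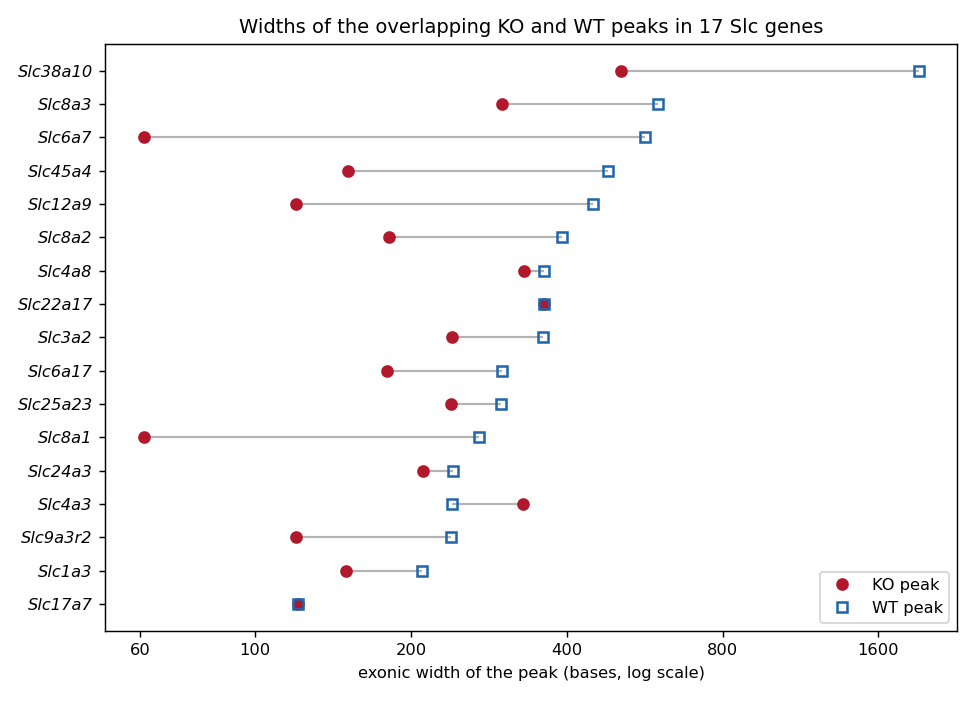
Exonic width in bases, on a log axis, of the overlapping KO peak (filled circle) and WT peak (open square) in 17 of the 18 Slc genes with a retained peak, ordered by WT width. The KO peak is the narrower in 14 of the genes drawn, equal in Slc22a17 and Slc17a7, and wider in Slc4a3.

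The plot of overlapping peaks shows that the KO peak was usually narrower than the WT peak it overlapped. The KO peak lay wholly inside the WT peak in 16 of the 18 genes, the exceptions being Slc4a3 and Slc24a3. The KO peaks over a WT peak had a median width of 180.5 bases and the retained WT peaks one of 330 bases. A median of 55.1% of the WT bases was covered (10.8 to 100%), and at least 50% was covered in 12 of the 18. Over the whole lists, KO peaks of Slc genes had a median of 151 bases (quartiles 120 and 209.5, all genes 151) and WT peaks one of 180 bases (quartiles 121 and 270, all genes 208). Lost WT peaks had a median of 180 bases (all genes 181).

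**Figure D4:**
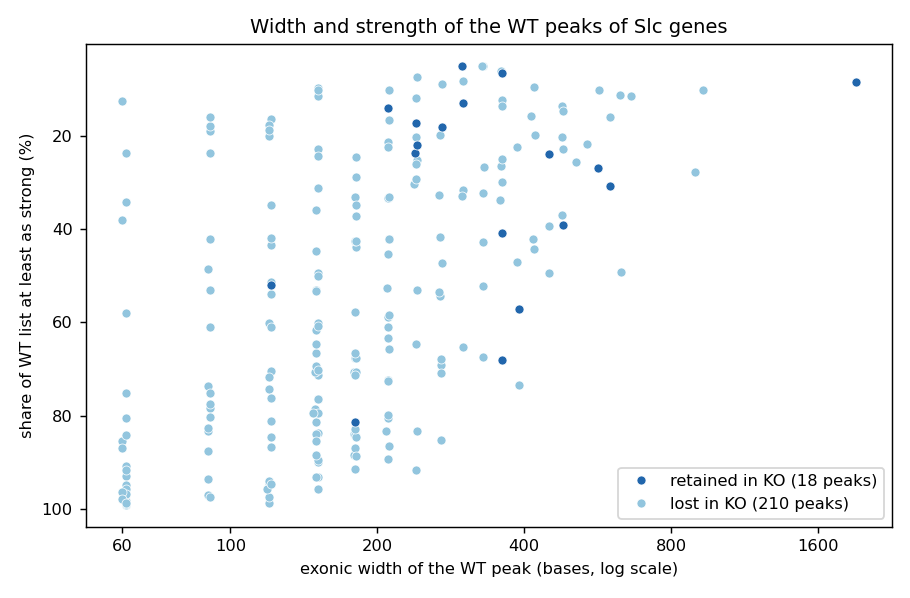
Exonic width of the 228 WT peaks of Slc genes on a log axis, against the share of the WT list with an at least as small score (percent, strongest at the top). Retained peaks are dark and lost peaks pale. The retained peaks lie mainly at the upper right, with a median rank of 23.9% against 57.8% for lost peaks.

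Retained peaks of Slc genes were found mainly among wide and strong WT peaks, as the plot of width and strength shows. Because 1 shared base is enough for a peak to be retained, the rule itself favours wide peaks, and the width trend cannot be separated from it. With 50% of the WT peak covered, retained WT peaks had a median of 269.5 bases (all genes 270) and lost ones of 180 (all genes 181). When all WT peaks were divided by score into 5 classes of 20% each, the Slc peaks were retained in 7 of 40 in the strongest class (17.5%, all genes 31%), then 6 of 46 (13%, all genes 14%), 3 of 38 (7.89%, all genes 9.49%), 1 of 46 (2.17%, all genes 6.43%) and 1 of 58 in the weakest (1.72%, all genes 3.53%). The Slc share was below that of all genes in each of the 5 classes. By width, 0 of 52 Slc peaks in the narrowest class were retained (all genes 3.08%), and 8 of 33 in the widest (24.2%, all genes 31.2%). The count of 0 allows a share of up to 5.77% as 3 peaks of the total and 6.88% by the Wilson interval, both above the 3.08% of all genes. The weakest score class held 25.4% of the Slc WT peaks, so weak peaks were somewhat more frequent among them than the 20% of the whole list.

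Peaks on several exonic blocks, which span a splice junction, made up 17 of 47 in KO (36.2%, 95% interval 24.0 to 50.5%, background 33.3%) and 36 of 228 in WT (15.8%, 11.6 to 21.1%, background 23.5%). Of these 36 WT peaks 10 were retained (27.8%, all genes 28.9%), and of the 192 WT peaks on 1 block 8 were retained (4.17%, all genes 7.97%). The retained share of multi-block peaks in Slc genes was thus close to that of all genes. The share of single-block peaks was lower by its point value, which is given without an interval, and this difference was not tested.

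The midpoint lay within 1000 bases of the gene end for 9 of 47 KO peaks (19.1%, 10.4 to 32.5%, background 16.7%) and 50 of 228 WT peaks (21.9%, 17 to 27.7%, background 16.5%). It lay there for 3 of 18 retained WT peaks (16.7%, 5.84 to 39.2%, all genes 8.93%) and 47 of 210 lost WT peaks (22.4%, all genes 17.6%). For KO peaks the order depended on the window: within 5000 bases of the end lay 36.2% of Slc and 48.9% of all KO peaks. At the other end of the genes, the midpoint lay within 200 bases of the gene start for 4 of 47 KO peaks (8.51%, 3.36 to 19.9%, background 4.23%) and 22 of 228 WT peaks (9.65%, 6.46 to 14.2%, background 4.46%). Peaks at the start were thus listed more often in Slc genes than over all genes in WT, where the background lay below the interval, and 3 of these 22 were retained and 19 lost.

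KO peaks outside every WT peak numbered 29. Of these, 17 lay in 16 genes that also had a WT peak, at a median of 2454 bases from the nearest one (59 to 21163). These distances run along the genome and can include introns. Only 6 of the 17 lay within 1000 bases and 2 within 100, those of Slc7a5 and Slc7a14, both at 59 bases. The 13 genes with both lists and no shared base, which are named after their values were seen, were Slc39a10, Slc30a1, Slc35f1, Slc16a6, Slc38a9, Slc39a6, Slc66a2, Slc1a2, Slc7a14, Slc26a1, Slc6a6, Slc5a5 and Slc7a5. Amino acid transporters made up 5 of the 13. Among them were Slc6a6, the taurine transporter gene, and Slc38a9, an arginine sensor of the lysosome.

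The other 12 KO peaks lay in the 12 genes with no WT peak. After Slc35d1, the longest was that of Slc7a13 with 268 bases, followed by Slc17a3 with 181, Slc25a40 with 180, Slc17a1 and Slc9b2 with 150 each, Slc2a9 with 121, Slc44a1 with 120, and Slc6a15 and Slc25a2 with 91 each. The remaining 2, Slc22a19 with 90 bases and Slc18b1 with 61, were the shortest and are named after their values were seen. Several of these genes are best known from kidney or liver rather than brain, among them Slc7a13, Slc17a1, Slc17a3, Slc22a19 and Slc2a9. The KO list as a whole repeated 8 scores many times, and 7 of the 47 KO peaks of Slc genes carried one of these (14.9%), beside 14.5% of all KO peaks. Leaving such peaks out left 9 of the 12 genes with a peak in KO alone, beside 452 of 799 over all genes. It left 16 Slc genes with a retained peak, Slc4a3 being among the 2 no longer counted. KO peaks over a WT peak then made up 40% in Slc genes, beside 63% over all genes.

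Proteins that drive or regulate SLC transport were described from a list of 49 genes: the sodium, calcium and vesicular proton pumps, the kinases of the cation-chloride cotransporters, and transporters with other names. A KO peak was listed for 10 of the 49 and a WT peak for 26. Of all 21900 protein-coding genes 2677 had a KO peak and 7496 (34.2%) a WT peak. A retained peak was found in 8 of the 26 (30.8%), beside 20.6% over all genes. This share rests on few genes chosen by name, is given without an interval and was not tested. Of the 6 kinase genes all had a WT peak, and Wnk1, Wnk2 and Stk39 had a retained peak. Among the plasma membrane calcium pumps, which clear calcium beside the SLC8 exchangers, Atp2b1 had 3 KO peaks and 4 WT peaks, of which 2 were retained, whereas Atp2b2 had 1 KO peak and 7 WT peaks, none of them retained. The vesicular proton pump genes had no KO peak and a WT peak in 3 of 9, and the Slco organic anion transporter genes had no KO peak and a WT peak in 2 of 7.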

How the data were processed

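Genotype and treatment labels gave the groups of libraries. The submitters' processing notes name STAR and GRCm38 without versions, and neither the peak caller and its limits nor the merging of libraries are given in the sources used. For each peak the authors deposited 1 score, with maxima of 4.4e-06 in KO and 0.00015 in WT, taken here for a p-value or q-value without knowing which. Scores of exactly 0 (80 KO and 764 WT peaks) are below what the format holds. Scores served only to rank or filter peaks within a list.

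Entries sharing exonic bases on 1 strand were merged within a list (3733 KO and 15091 WT entries, none of a Slc gene merged). The lists were compared with Python 3.11.15, pandas 2.3.3 and SciPy 1.17.1, and the matching was tested on simulated data. No test over samples was possible. Gene spans and start sequences came from RefSeq tables of GRCm38.p6, in which all 147 symbols were found. No genome was used, so motifs under most peaks were not searched. Exonic width is the summed block length, whereas distances between peaks and to gene starts and ends are genomic and can include introns. Intervals are Wilson 95% intervals.

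The genes, role groups, lists and comparisons were chosen with earlier results of these data known. The rule for names took the 12 genes richest in WT peaks, every gene with a retained peak, 10 genes of KO alone by summed peak length, up to 3 per role with most WT peaks, and the genes that are no transporters. Single peaks are given for 6 synaptic and glial genes fixed by name. Slc1a1, Slc12a2, Slc16a1, Slc17a8 and Slc25a4 were added after their values were seen. A few genes within the rule are left out of the text, and 1 of them out of a figure. Alternatives varied the overlap, the strand, the merging, the score limits, the gap and the window at the gene end.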

Additional observations from a re-analysis of the deposited data

How the results depend on the processing

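Of 116 values recomputed under another setting, 96 moved by less than their counting interval or 1.5 times and 20 moved by more. Part of the 96 could not move, so their number is no measure of stability. No Slc entry was merged, so leaving entries unmerged changed no Slc value. The overlap, strand and gap rules alter only the matching. Genes of KO alone, and the widths and gene-end shares of the whole KO and WT lists, stayed fixed under them. With 50% of the WT peak covered, or 50% of both, KO peaks over a WT peak made up 25.5% (all genes 29.7% and 25.6%), so under the second of these the gap to all genes closed, and 12 of the 18 genes kept a retained peak, Slc12a9, Slc38a10, Slc45a4, Slc6a7, Slc8a1 and Slc8a2 no longer counting. Whole spans in place of exonic blocks put the median retained width at 530.5 bases (all genes 967). With the stronger 50% of each list, 6 Slc genes had a peak in KO alone in place of 12 (all genes 421 in place of 799). Median widths were then 210.5 bases in KO, 241 in WT and 240 for lost peaks (all genes 210, 298 and 270). When only as many WT peaks as KO peaks were kept, the strongest first, 18.5% of WT peaks (all genes 28.6%) and 25.6% of genes (all genes 34.3%) were retained. Of KO peaks, 21.3% then lay over a WT peak (all genes 32.5%), and 26 genes had a peak in KO alone (all genes 1641). The median width was 270 bases in WT and 255 for lost peaks (all genes 360 and 329). Each of these 2 settings left 10 of the 18 genes with a retained peak. A window of 500 bases at the gene end held 8.51% of KO, 9.65% of WT, 0% of retained and 10.5% of lost peaks (all genes 8.57%, 7.51%, 2.91% and 8.19%). One of 5000 bases held 36.2% of KO, 64.0% of WT and 67.1% of lost peaks (all genes 48.9%, 57.2% and 59.2%). The window of 5000 bases thus put the KO share below that of all genes instead of above it. By its construction each setting admits fewer or more bases or peaks, and what else lay behind these moves was not tested. Allowing a gap of 100 bases added Slc7a5 and Slc7a14 to the 18 genes, and the setting without recurring scores was chosen after seeing the data. No paired analysis was possible because each genotype has 1 pooled list, and for the same reason no replicate could be left out. The KO list came from 2 IP libraries and the longer WT list from 3, so the number of libraries and the genotype cannot be told apart, and the unknown depth limits what a missing peak shows.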
